A study of Mus musculus with 6 samples.

Results

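The 10 genes described here encode the core of the DNA damage checkpoint: the apical kinases Atr and Atm, the ATR partner Atrip, the ATR activator Topbp1, the 9-1-1 clamp subunits Rad1, Hus1 and Rad9b, the clamp loader subunit Rad17, and the effector kinases Chek1 and Chek2. They were chosen by name, with earlier results of these data known. Each was found as the gene of 1 transcript cluster, the array's unit of measurement, among 19938 genes with a cluster of their own. In purified mouse germ cells, 5 of the 10 were lower in round spermatids than in pachytene spermatocytes: Atr, Atrip, Topbp1, Rad1 and Rad9b. Another 3 were higher: Chek1, Atm and Rad17. Of all tested genes, 17.1% were lower and 17.8% higher. The differences of Atrip, Atm and Rad17 did not pass when wild-type pachytene array 1 or either spermatid array was left out. No difference between Rnf8 knockout and wild-type cells passed the test for any of the 10.

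RNA was measured on 6 Affymetrix Gene 1.0 ST arrays of cells from C57BL/6 mice. The groups were wild-type (WT) pachytene spermatocytes (2 arrays), Rnf8 knockout (KO) pachytene spermatocytes (2 arrays), WT round spermatids (1 array) and KO round spermatids (1 array). Rnf8 encodes a ubiquitin ligase of the DNA damage response, and the design asks what its loss does to transcripts in each cell type. Pachytene spermatocytes are in meiotic prophase, and round spermatids are the haploid cells that follow the meiotic divisions. Each fraction was prepared by gravity sedimentation from 3 to 4 males, with a purity above 95% stated from nuclear staining. Neither the knockout allele nor the animals' age was stated in the labels. Whether the pachytene arrays of one genotype hold separate preparations was not stated either, so a p-value reflects only how far these arrays spread, and that spread may be technical. The targeted gene's only cluster also lists the readthrough gene Gm28043 and stood outside the tests: Rnf8 was at log2 8.51 and 8.86 on the WT pachytene arrays, 7.86 and 8.05 on the KO pachytene arrays, 7.78 in WT and 7.50 in KO round spermatids. In pachytene cells both KO arrays lay below both WT arrays, with a KO minus WT difference of -0.74. In round spermatids the difference was -0.28 with 1 array each, smaller than the gap between the 2 WT pachytene arrays.

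As background, ATR, held by ATRIP on single-stranded DNA, is switched on by TOPBP1 when the RAD17 loader has placed the ring-shaped 9-1-1 clamp beside the lesion, and it then phosphorylates CHK1. ATM responds to double-strand breaks and acts through CHK2. In male meiosis ATR, TOPBP1 and the clamp act on unsynapsed chromosomes, above all on the X and Y, where the resulting histone phosphorylation leads to silencing and, further along, to ubiquitin marks set by RNF8. RAD9B is a paralog of RAD9A found mainly in testis, and it can take the place of RAD9A in the clamp.

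The promoters of 3 members are shown, picked by their change between the cell types. Chek1 had the largest rise in round spermatids and Rad1 the largest fall. Rad9b was the other clamp subunit that fell more than 2-fold. The sequences are RefSeq's for GRCm38.p6, each 280 bases long from 250 bases before the annotated start to 30 after it, 5′ to 3′ on the gene's strand. Chek1 lies at chr9:36726629-36726908 (minus strand), Rad1 at chr15:10485788-10486067 (plus strand, the second of its 2 annotated starts) and Rad9b at chr5:122354176-122354455 (minus strand). Capitals mark matches to the motifs named after the sequences, on either strand, so that CGTCA is TGACG read on the other strand.
Chek1: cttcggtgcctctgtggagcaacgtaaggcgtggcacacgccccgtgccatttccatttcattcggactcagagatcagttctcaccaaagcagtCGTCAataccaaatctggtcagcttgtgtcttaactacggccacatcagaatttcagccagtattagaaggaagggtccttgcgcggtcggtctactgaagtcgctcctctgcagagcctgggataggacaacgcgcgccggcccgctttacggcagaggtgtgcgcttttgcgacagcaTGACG
Rad1: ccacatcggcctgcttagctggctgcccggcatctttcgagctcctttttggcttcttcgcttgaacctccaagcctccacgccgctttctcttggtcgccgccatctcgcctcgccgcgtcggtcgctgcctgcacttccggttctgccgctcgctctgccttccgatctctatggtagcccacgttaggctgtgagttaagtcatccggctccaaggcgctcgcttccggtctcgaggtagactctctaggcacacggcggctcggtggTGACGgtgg
Rad9b: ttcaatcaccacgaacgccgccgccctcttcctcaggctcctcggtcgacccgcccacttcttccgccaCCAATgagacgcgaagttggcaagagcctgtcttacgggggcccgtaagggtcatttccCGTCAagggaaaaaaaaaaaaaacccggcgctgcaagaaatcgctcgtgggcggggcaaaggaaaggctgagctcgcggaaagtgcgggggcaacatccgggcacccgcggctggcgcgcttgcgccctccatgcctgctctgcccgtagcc
All 10 members had a promoter of 300 bases in the table, and the motifs were searched on both strands of it. The short form of the cAMP response element, TGACG, bound by CREB and its testis relative CREM, occurred in 6 of the 10 genes: Chek1, which rose, and Atr, Atrip, Topbp1, Rad1 and Rad9b, which fell. It occurs in 20.8% of 32851 promoter windows in the table. Counted from the annotated start, it begins at positions -155 and 26 in Chek1, at 22 in Rad1 and at -122 in Rad9b. The full palindrome, TGACGTCA, was in 0 of the 10 genes (1.79% of all windows). A CCAAT box, CCAAT, was in 4, including Rad9b (37.4% of all windows), and an E2F site, TTTCGCGC or TTTGGCGC, was in Topbp1 only (0.813%). MYB sites, searched as TAACGG and as TAACTG and also with CAACGG and with CAACTG, were in Atrip and Hus1 (28.3%), and the palindromic NRF1 site was in none (0.971%). The short form is contained in the palindrome, and no other word searched contains another. The members' windows held 21 to 38 CpG dinucleotides, against a median of 7 over all windows in the table. TGACG itself holds a CpG, so its share over all windows is not a matched background for the members. The shares also count windows, while Rad1, with 2 windows, was counted as 1 gene. These matches describe the letters alone.

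Each value below is log2 of the authors' linear intensity, and each difference is round spermatids minus pachytene spermatocytes or KO minus WT on that scale, so that a difference of 1 is 2-fold. The limma tests took in 17925 genes that reached log2 6 on any array, and all 10 members passed this filter. A gene is said to rise, fall or be called where the Benjamini-Hochberg adjusted p over all tested genes was under 0.05. Levels are compared within a gene only, because probes of different genes respond differently. Some tests were repeated with the replicate number as a block. Both spermatid arrays carry number 2, so the blocked cell type difference sets them against the pachytene arrays numbered 2 alone.

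The arrays had median intensities between 197 and 218 and lower quartiles between log2 6.15 and 6.28. Of 9 pachytene markers, including the synaptonemal complex gene Sycp3 and the PIWI gene Piwil1, 7 fell and 0 rose in round spermatids, with a summed intensity of 38334 to 44835 on the pachytene and 23000 to 24221 on the spermatid arrays. Of 9 spermatid markers 7 rose and 0 fell, but their summed intensity was already 30399.7 to 38306 on the pachytene arrays, against 49788 to 52107 in round spermatids, and Prm1 and Prm2 did not pass. All 6 measured Leydig markers and 6 of 9 Sertoli markers fell, so that the fractions also differed in somatic transcripts: the summed Leydig intensity was 4689 to 6905 on pachytene and 1044 to 1277 on spermatid arrays, and the summed Sertoli intensity 6234 to 7670 and 3412 to 3989. Of 6 peritubular and vessel markers 1 rose, the matrix gene decorin (summed intensity 1361 to 1580 and 2679 to 3427), of 8 spermatogonial markers 1 rose and 1 fell (3453 to 4047 and 2766 to 3138), and of 5 macrophage and blood markers 1 rose (521 to 591 and 658 to 691). No marker was at 0 on any array. The part of these differences in the results below was not tested, and fewer cells of a type and less RNA per cell cannot be told apart in such fractions.

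Between the cell types, 8 of the 10 members were called in the fit over both genotypes (limma, 4 pachytene against 2 spermatid arrays), against 34.9% of all tested genes. Of these 5 fell (17.1% of all genes did) and 3 rose (17.8%). Differences ran from -1.50 for Rad1 to 1.33 for Chek1, with a median of -0.38 beside -0.06 over all tested genes. In 9 of the 10, all but Chek2, no spermatid array lay within the range of the pachytene arrays, as in 50.5% of all genes: 3 lay above (24.1% of all genes) and 6 below (26.4%). The 8 calls became 5 without the WT round spermatid array, where 15.5% of all genes were called, and 5 without the KO round spermatid array, where 20% were. At least 2-fold and called were 5 members, against 11.4% of all genes.

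**Figure D1:**
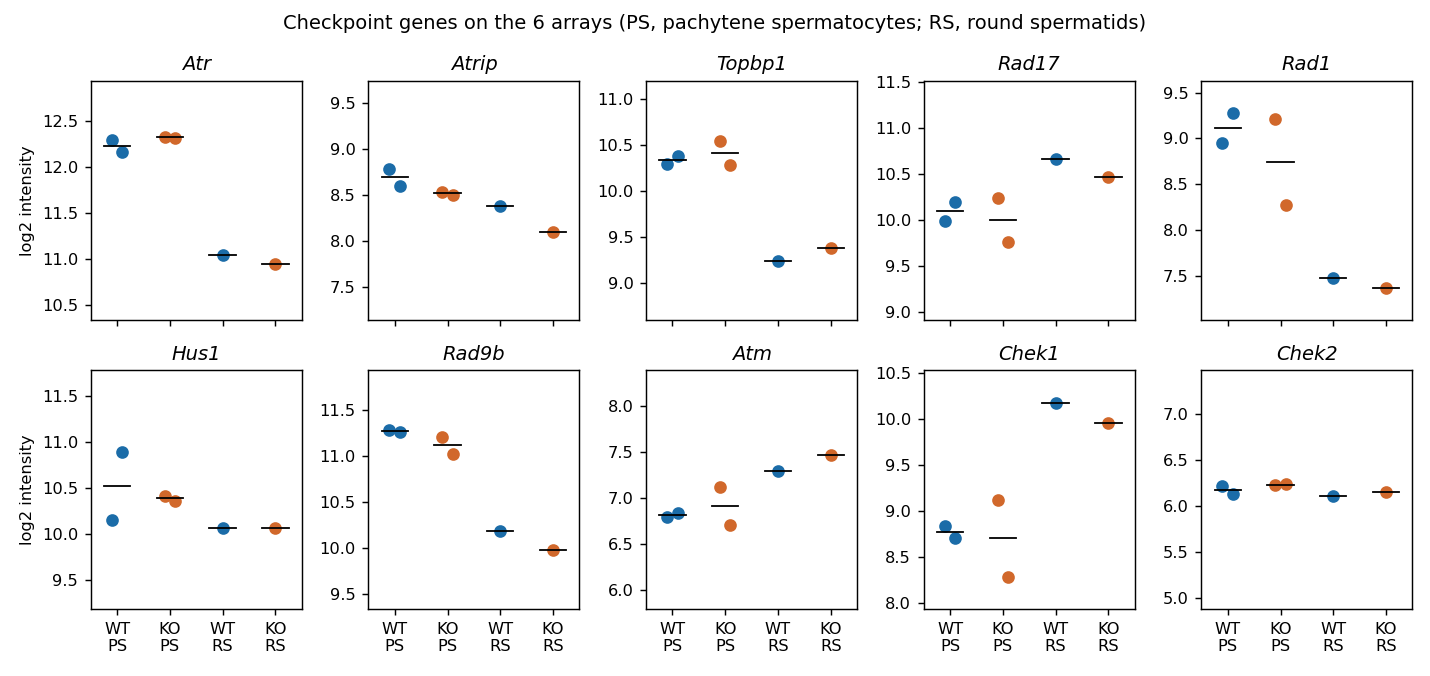
Log2 intensity of the 10 checkpoint genes on the 6 arrays, with 1 point per array, WT in blue and KO in orange, a bar at each group's mean, and the same axis length in every panel. Atr, Topbp1, Rad1 and Rad9b are lower and Chek1 is higher on both round spermatid arrays than on all 4 pachytene arrays, while Chek2 stays between 6.11 and 6.24.

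Atr, the apical kinase of the single-stranded DNA response, was at log2 12.29 and 12.16 on the WT pachytene arrays, 12.33 and 12.32 on the KO pachytene arrays, 11.04 in WT and 10.95 in KO round spermatids. Every pachytene array lay above both spermatid arrays, by far more than the gap of 0.13 between the WT pachytene replicates. The fall was -1.28 (SE 0.11), or 2.43-fold, with an adjusted p of 1.95e-04 in limma, the smallest of the 10 members.

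Atrip, the obligate partner that brings ATR to RPA-coated DNA, moved much less. It was at 8.78 and 8.61 in WT pachytene, 8.53 and 8.51 in KO pachytene, 8.38 in WT spermatid and 8.10 in KO spermatid arrays. The groups did not overlap, yet the lowest pachytene array lay only 0.13 above the WT spermatid array. The fall of -0.37 (SE 0.11, 1.29-fold, limma adjusted p = 0.0321) was no longer called without WT pachytene array 1 (-0.33, adjusted p = 0.109), without the WT spermatid array (-0.42, adjusted p = 0.201), without the KO spermatid array (-0.31, adjusted p = 0.322), with the replicate number as a block (-0.32, adjusted p = 0.123) or in the mean over the fit with 4 groups (adjusted p = 0.0773).

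Topbp1, which activates ATR at the clamp, fell with it. Its values were 10.29 and 10.38 in WT pachytene, 10.54 and 10.27 in KO pachytene, 9.24 in WT and 9.38 in KO round spermatids. All pachytene arrays were higher than both spermatid arrays, and the difference was -1.06 (SE 0.12, 2.09-fold, limma adjusted p = 4.21e-04). Over the 6 arrays, each gene centred on its own mean, Atr, Topbp1 and Rad9b were close in profile, with root mean square distances of 0.15 to 0.16 on the log2 scale between each pair. These profiles cover 6 arrays, and each holds the same step between cell types.

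The clamp subunits differed in size of change. Rad1 lay at 8.95 and 9.28 in WT pachytene, 9.21 and 8.27 in KO pachytene, 7.48 in WT and 7.37 in KO round spermatids. The KO pachytene replicates were 0.94 apart, array 2 being the lower, but even that array lay above both spermatid arrays. The fall of -1.50 (SE 0.25), or 2.83-fold, was the largest among the members (limma adjusted p = 0.00218), and it was -1.72 without KO pachytene array 2.

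Rad9b, the testis paralog of RAD9, was at 11.29 and 11.26 in WT pachytene, 11.21 and 11.02 in KO pachytene, 10.19 in WT and 9.98 in KO round spermatids. The spermatid arrays lay below every pachytene array, and the fall was -1.11 (SE 0.11, 2.17-fold, limma adjusted p = 2.71e-04). Its widely expressed paralog Rad9a, which is no member, was at 9.74 and 9.75 in WT pachytene, 9.29 and 9.56 in KO pachytene, and 9.15 and 9.05 in WT and KO round spermatids. Rad9a fell by 0.49 (SE 0.12, 1.40-fold, limma adjusted p = 0.0160), a call lost without either WT pachytene array (adjusted p = 0.0571 without array 1 and 0.0605 without array 2) or either spermatid array (adjusted p = 0.0749 without KO and 0.289 without WT). Whether the paralogs' differences differ from each other was not tested.

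Hus1, the remaining clamp subunit, did not pass. It was at 10.14 and 10.89 in WT pachytene, 10.41 and 10.36 in KO pachytene, and 10.06 on both spermatid arrays. Both spermatid arrays lay just below the lowest pachytene array, but the WT pachytene replicates were 0.75 apart, wider than the cell type difference of -0.39 (SE 0.19, 95% interval -0.84 to 0.06, limma adjusted p = 0.175). Those replicates set its size: the difference was -0.54 and was called without WT pachytene array 1 (adjusted p = 0.0466), and was -0.22 and not called without WT pachytene array 2 (adjusted p = 0.292). Its paralog Hus1b, between 7.96 and 8.54 in pachytene and at 7.89 and 7.88 in spermatid arrays, also did not pass (-0.36, SE 0.15, adjusted p = 0.115), but was called without KO pachytene array 2 (-0.45, adjusted p = 0.0334).

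Rad17, the subunit of the loader that opens and places the clamp, went the other way from Rad1 and Rad9b. It was at 9.99 and 10.20 in WT pachytene, 10.24 and 9.76 in KO pachytene, 10.66 in WT and 10.46 in KO round spermatids. Both spermatid arrays were above all pachytene arrays, with a rise of 0.52 (SE 0.15, 1.43-fold, limma adjusted p = 0.0326). This call was lost without either WT pachytene array (adjusted p = 0.101 without array 1 and 0.0722 without array 2) and without either spermatid array (adjusted p = 0.295 without WT and 0.163 without KO), and in the mean over the fit with 4 groups (0.0613).

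Atm, the kinase of the double-strand break response, rose by a like amount. Its values were 6.80 and 6.84 in WT pachytene, 7.12 and 6.71 in KO pachytene, 7.30 in WT and 7.47 in KO round spermatids. The cluster lay between the lower quartile and the median of every array, so it was dim in both cell types. The difference of 0.52 (SE 0.13, 1.43-fold, limma adjusted p = 0.0188) was not called without WT pachytene array 1 (adjusted p = 0.0598) or 2 (0.0573), or without the WT (0.151) or KO (0.193) spermatid array. Atm and Rad17 had the closest profiles of any pair of members, with a root mean square distance of 0.14.

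Chek1, the kinase that ATR activates to hold CDC25 phosphatases back, had the largest rise. It was at 8.84 and 8.71 in WT pachytene, 9.12 and 8.28 in KO pachytene, 10.18 in WT and 9.96 in KO round spermatids. Both spermatid arrays were at least 0.84 above the highest pachytene array, and the lowest was again KO array 2. The rise was 1.33 (SE 0.21), or 2.52-fold with a 95% interval of 1.78 to 3.55, at a limma adjusted p of 0.00202. Without KO pachytene array 2 it was 1.16.

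Chek2, the kinase below ATM, was at 6.21 and 6.13 in WT pachytene, 6.22 and 6.24 in KO pachytene, and 6.11 and 6.15 in WT and KO round spermatids. These values lie near each array's lower quartile, and a change in a cluster this dim may not be detectable. The difference was -0.07 (SE 0.10, 95% interval -0.31 to 0.16, limma adjusted p = 0.658), and the arrays of the cell types overlapped.

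**Figure D2:**
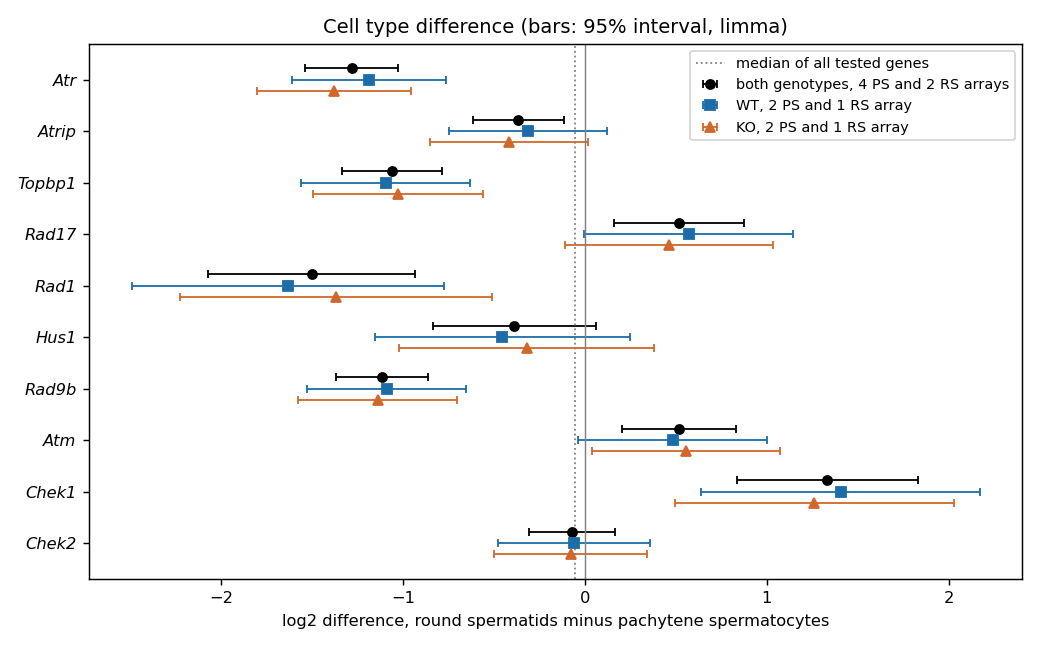
Log2 difference between round spermatids and pachytene spermatocytes for each member, with 95% limma intervals, over both genotypes (black circles), in WT (blue squares) and in KO (orange triangles); the dotted line is the median of all tested genes, -0.06. Rad1, Atr, Rad9b and Topbp1 lie below -1 and Chek1 above 1 in both genotypes, and over both genotypes the intervals of Hus1 and Chek2 include 0.

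The comparison was also made in each genotype. The WT test is the same as that over both genotypes without the KO spermatid array. Likewise the KO test is the same as that without the WT spermatid array, so neither adds to those results. The WT and KO differences come from separate arrays. Both were tested in 1 fit with 4 groups that shares its estimate of the spread, so the calls are not separate. In WT, 5 members were called (limma, 2 against 1 array, against 20% of all genes), 1 higher (11.5% of all genes) and 4 lower (8.45%): Chek1 at 1.40 (SE 0.33), Rad1 at -1.63 (SE 0.37), Atr at -1.19 (SE 0.18), Topbp1 at -1.10 (SE 0.20) and Rad9b at -1.09 (SE 0.19). In KO the same 5 were called, against 15.5% of all genes, again 1 higher (8.36%) and 4 lower (7.18%): Chek1 at 1.26 (SE 0.33), Rad1 at -1.37 (SE 0.37), Atr at -1.38 (SE 0.18), Topbp1 at -1.03 (SE 0.20) and Rad9b at -1.14 (SE 0.19). Of all genes 14.2% were called in the same direction in both. The lone spermatid array of each genotype is assumed here to vary like the pachytene pairs. Without either KO pachytene array, 7 members and 30.7% of all genes were called in WT. In WT 1 member was called without WT pachytene array 1 (Rad1) and 1 without array 2 (Atr), with 9.15% and 7.83% of all genes called, the calls lost having adjusted p between 0.0505 and 0.0773. The KO count was 3 with no filter on low values, where Chek1 (adjusted p = 0.0577) and Rad1 (0.0646) missed the threshold. The KO call of Chek1 was also lost without either WT pachytene array (adjusted p = 0.0551 each). The KO rise of Chek1 was 1.68 without KO pachytene array 1 and 0.84 without array 2, and the KO fall of Rad1 was -0.90 and -1.84. Each of these values sets 1 KO array against 1 KO array, with no KO replicate left to show a spread.

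Neighbouring genes whose intervals overlap a member's in the GRCm38.p6 reference were looked at as well. Ttc23l, which overlaps Rad1, rose by 1.47 (SE 0.18, limma adjusted p = 6.28e-04), opposite to Rad1, and Pptc7, a mitochondrial phosphatase gene that overlaps Rad9b, rose by 1.01 (SE 0.12, adjusted p = 5.22e-04), opposite to Rad9b. Atr overlaps 1700065D16Rik, at -0.36 (SE 0.13, adjusted p = 0.0662). It also overlaps the lncRNA gene Gm16794 and the pseudogene LOC115487301, for which no cluster was used here. Atrip overlaps the readthrough transcript Atrip-trex1, for which no separate cluster was used here. Whether probes of one gene picked up its neighbour was not tested.

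By the distance between centred profiles over the 6 arrays, the genes most like Chek1 were the inositol phosphatase gene Inpp1 (distance 0.05, rise 1.40), the phosphatidylinositol kinase gene Pi4k2b (0.06, rise 1.28) and Edrf1 (0.06, rise 1.26). In all 436 genes lay within 0.2 of Chek1. Those most like Rad1 were the centromere protein gene Cenpc1 (0.10, fall -1.39), the zinc finger gene Zfp518a (0.10, fall -1.40) and the deacetylase gene Sirt1 (0.10, fall -1.44), with 39 genes within 0.2.

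The loss of Rnf8 moved no member past the threshold. In pachytene spermatocytes 0 of 10 were called (limma, 0% of all genes were, 0 of the 10 and 430 of all genes at an unadjusted p under 0.05). Differences ran from -0.37 for Rad1 to 0.10 for Atm, with a median of -0.08 beside 0.03 over all tested genes. For Atr the values given above put both KO arrays above both WT arrays, with a difference of 0.10 (SE 0.15, 95% interval -0.25 to 0.44). In the same way Chek2 was higher in KO (0.06, SE 0.15), and Atrip (-0.17, SE 0.15) and Rad9b (-0.16, SE 0.15) were lower, so that 4 of 10 members did not overlap, against 25% of all genes.

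The widest KO against WT interval in pachytene cells was that of Rad1, -1.07 to 0.33, and that of Chek1 followed, -0.70 to 0.55. KO pachytene array 2 decides its direction and that of Chek1: without it Rad1 was at 0.10 and Chek1 at 0.35, neither called. Other uncalled signs turned as well: without KO pachytene array 1 Atm was at -0.11 and Topbp1 at -0.06, without WT pachytene array 2 Hus1 was at 0.24 and Rad17 at 0.01, and without KO pachytene array 2 Rad17 was at 0.15. Chek1 with all arrays was at -0.07, and its KO replicates were 0.84 apart. Of the 10 members 2, Rad1 and Chek1, had KO pachytene replicates at least 1.5-fold apart, against 10.2% of all genes, and 1, Hus1, had such WT replicates, against 1.82%. The intervals of the other 8 members included 0 and lay between -0.70 and 0.52. All 8 spermatogonial markers had a higher mean in KO than in WT pachytene arrays. So did 8 of 9 round spermatid, 7 of 9 Sertoli and 5 of 6 peritubular and vessel markers. Fewer did among macrophage and blood (3 of 5), pachytene (4 of 9) and Leydig markers (1 of 6). Of these markers 0 were called, and their part in these values was not tested.

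In round spermatids the KO and WT arrays were compared with no replicate. Members differed by -0.28 (Atrip) to 0.17 (Atm), with a median of -0.10 beside 0.05 over all genes, and 0 of 10 differed at least 2-fold, against 0.385% of all genes (0.0335% higher and 0.351% lower in KO). Chek1 was at -0.22, Rad9b at -0.21, Rad17 at -0.20, Rad1 at -0.11, Atr at -0.10, Topbp1 at 0.14, Chek2 at 0.04 and Hus1 at 0.00. Over the same 10 genes the WT pachytene replicates differed by a median of 0.13 and the KO pachytene replicates by 0.23. Markers of other cells differed in this pair too: all 9 Sertoli (median 0.25) and all 6 peritubular and vessel markers (0.31), 6 of 8 spermatogonial (0.33), 4 of 6 Leydig (0.11) and 3 of 5 macrophage and blood markers (0.01) were higher in the KO array. Among the markers of the purified cells themselves, 1 of 9 round spermatid (median -0.06) and 3 of 9 pachytene markers (-0.08) were higher in the KO array. The part of all these markers in the members' values was not tested.

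**Figure D3:**
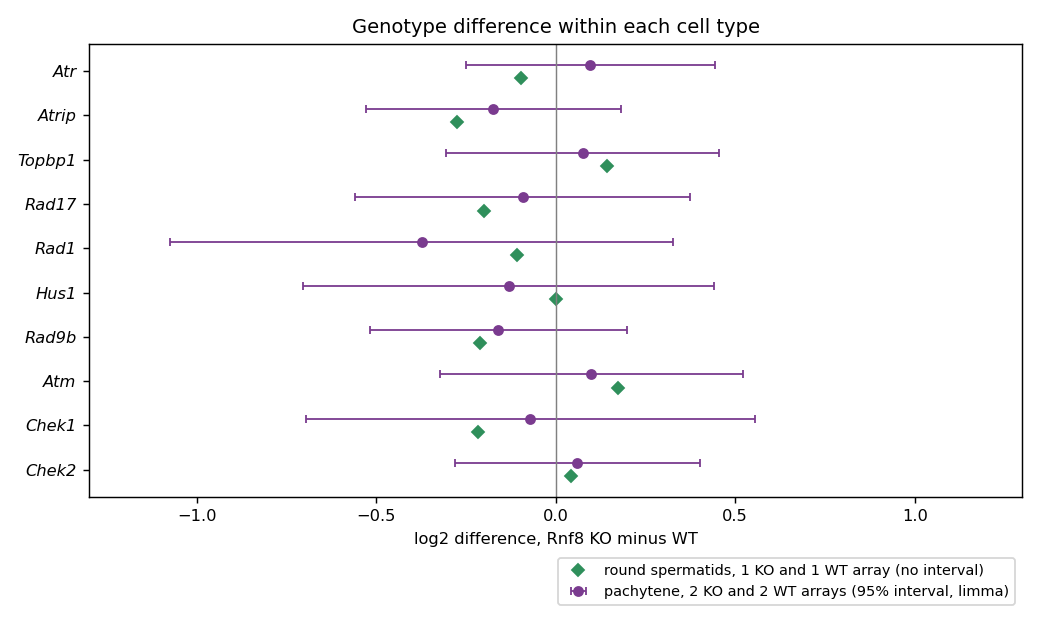
Log2 difference between Rnf8 KO and WT for each member in pachytene spermatocytes (purple circles, 95% limma interval, 2 arrays per genotype) and in round spermatids (green diamonds, 1 array per genotype, no interval). All pachytene intervals include 0 and the spermatid differences lie between -0.28 and 0.17.

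Over both cell types the KO effect was between -0.28 (Rad1) and 0.12 (Atm), with 0 of 10 members called (limma, smallest member adjusted p = 0.892, 0% of all genes called, 0 of the 10 and 979 of all genes at an unadjusted p under 0.05). The difference between the cell types in the KO effect was tested as an interaction. It passed for 0 members and for 0% of all genes (limma, 0 of 10 members and 130 of all genes at an unadjusted p under 0.05), with estimates between -0.19 for Atr and 0.26 for Rad1.

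The order of the 4 group means put both pachytene groups above both spermatid groups for Atr, Atrip, Topbp1, Chek2, Rad1, Hus1 and Rad9b, and both spermatid groups on top for Atm, Chek1 and Rad17. In pachytene cells the step between WT and KO neighbours passed the test in no member, and in round spermatids it had none. The fitted difference between cell types over both genotypes did not pass for Hus1 and Chek2. For Chek2 the neighbouring WT pachytene and KO spermatid means were 0.02 apart, less than the steps between genotypes, 0.06 and 0.04.

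Partners of these genes were described in 6 lists of 60 measured genes, none of them members. Together 12 rose and 21 fell in round spermatids, with a median of -0.20 beside -0.06 for all tested genes, and 27 did not pass. Of all tested genes 17.8% rose and 17.1% fell, the background for each list below. Without the WT spermatid array 16 partners were called and 15.5% of all genes, and without the KO spermatid array 17 partners and 20% of all genes, against 34.9% of all genes with every array.

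Among 8 partners of the clamp and its loader, 1 rose and 1 fell (17.8% and 17.1% of all genes). Rhno1, which links the clamp to TOPBP1, rose by 1.05 (SE 0.14, limma adjusted p = 8.06e-04), and the fall was that of Rad9a. None of the replication factor C genes Rfc1 to Rfc5 passed, with differences from -0.20 to 0.20. RAD17 takes the place of RFC1 beside the other subunits in the clamp loader.

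Of 8 activators and mediators of ATR and RPA subunits, 1 rose and 1 fell (17.8% and 17.1% of all genes). Tipin, which guards stalled forks with TIMELESS, was between 8.22 and 9.34 on pachytene arrays and at 10.73 and 10.49 in WT and KO round spermatids, a rise of 1.78 (SE 0.28, 3.43-fold). Timeless itself was at -0.32 (SE 0.12, adjusted p = 0.0756). Etaa1, the activator of ATR that acts beside TOPBP1, fell by 0.75 (SE 0.19, adjusted p = 0.0152), a call lost without the WT (adjusted p = 0.241) or KO (adjusted p = 0.0528) spermatid array.

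Of 10 genes that activate ATM or spread its signal, 1 rose and 4 fell (17.8% and 17.1% of all genes). Rad50, of the MRN complex that senses breaks, fell by 1.18 (SE 0.12), while its partners Mre11a at 0.09 and Nbn at 0.10 did not pass. Mdc1, the adaptor that recruits RNF8, fell by 1.04 (SE 0.10), the histone variant gene H2ax by 0.87 (SE 0.12) and the acetyltransferase gene Kat5, outside the naming rule, by 0.70. Brca1, which acts with ATR on the sex chromosomes, rose by 1.09 (SE 0.17), and it was not called without the WT spermatid array (0.84, adjusted p = 0.0557).

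Of 15 measured effectors below CHK1 and CHK2, 6 rose and 5 fell (17.8% and 17.1% of all genes). The phosphatase genes Cdc25c and Cdc25a rose by 1.65 (SE 0.17) and 0.69 (SE 0.10), and Cdc25b, at -0.07, did not pass. The kinases that these phosphatases act on fell: Cdk2, at 11.50 to 11.61 on pachytene and 9.46 and 9.53 on WT and KO spermatid arrays, by 2.06 (SE 0.10, 4.16-fold), and Cdk1 by 0.83 (SE 0.12). E2f1 rose by 0.56 (SE 0.11) and the chromatin kinase gene Tlk1 fell by 0.88 (SE 0.17). Neither E2f1 nor Tlk1 was called without the WT spermatid array (adjusted p = 0.109 and 0.0613) or without the KO spermatid array (0.0624 and 0.0626).

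Of 9 other PI3K-like kinases and their chaperones, 0 rose and 4 fell (17.8% and 17.1% of all genes), with a median of -0.45. Trrap, the kinase-like scaffold of acetyltransferase complexes, fell by 1.56 (SE 0.11, 2.96-fold), and the chaperone genes Tti2 and Tti1, which help ATM and ATR fold, by 0.79 (SE 0.10) and 0.50 (SE 0.11). Prkdc (-0.23, SE 0.12) and Mtor (-0.11, SE 0.12) did not pass. Tti1 was not called without the WT (adjusted p = 0.0964) or KO (0.141) spermatid array.

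Of 10 measured genes of the meiotic axis and break formation, 3 rose and 6 fell (17.8% and 17.1% of all genes), with a median of -0.63. Sycp3 fell by 1.14 (SE 0.14), Iho1 by 0.97 (SE 0.15) and Hormad1, the axis protein through which ATR is brought to unsynapsed chromosomes, by 0.92 (SE 0.13). Dmc1, the meiotic recombinase, rose by 0.91 (SE 0.17), and Rec114 by 0.45 (SE 0.12) and Mei4 by 0.39 (SE 0.12). Dmc1 was not called without the WT spermatid array (0.82, adjusted p = 0.0825). Rec114 and Mei4 were not called without WT pachytene array 1 (adjusted p = 0.0774 and 0.0682), without the WT (0.143 and 0.0920) or KO (0.258 and 0.448) spermatid array, or with the replicate number as a block (0.0925 and 0.101), and Mei4 also not without WT pachytene array 2 (0.0807) or in the mean over the fit with 4 groups (0.0561). Without the KO spermatid array Mei4 was at 0.24.

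For KO against WT in pachytene spermatocytes, 0 of these 60 partners were called, and their median was -0.0024, with 30 of 60 above WT. In the round spermatid pair 0 of 60 differed at least 2-fold.

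**Figure D4:**
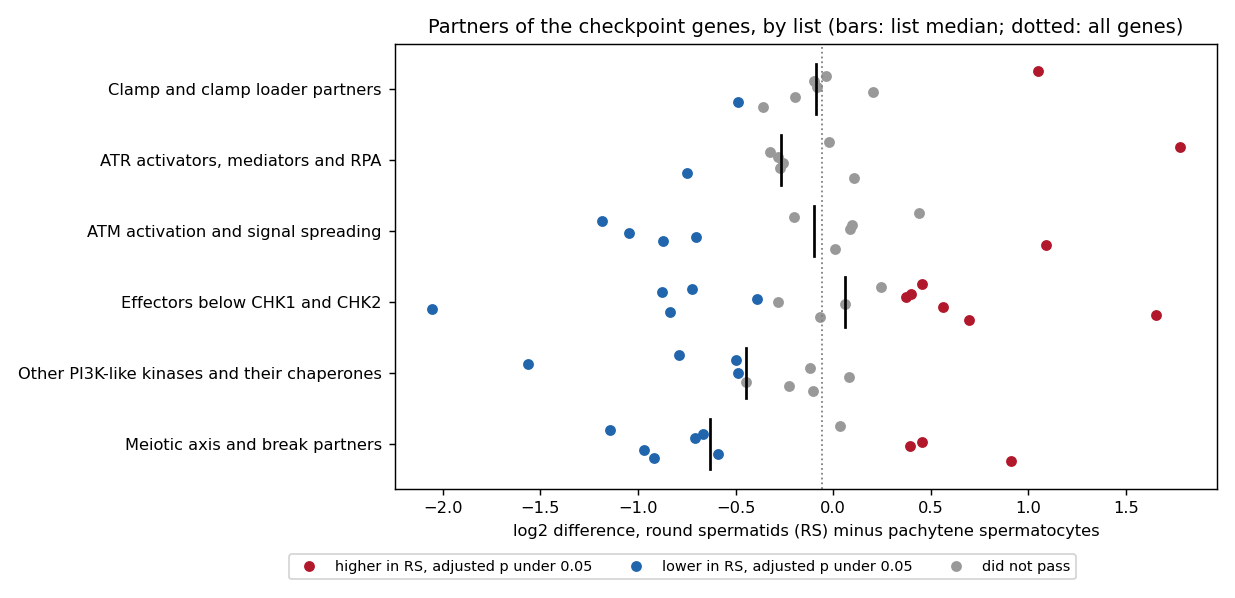
Log2 difference between round spermatids and pachytene spermatocytes for the 60 partner genes in 6 lists, red where higher and blue where lower at a limma adjusted p under 0.05 and grey otherwise; the bar is the list's median and the dotted line the median of all tested genes. The medians run from -0.63 for the meiotic axis list to 0.06 for the effectors, and Cdk2, at -2.06, is the leftmost point.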

How the data were processed

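RNA of purified cells was labelled as sense-strand cDNA and hybridised to Affymetrix Gene 1.0 ST arrays. The deposited table holds linear intensity. Per the submitters' processing notes it came from RMA in Affymetrix Expression Console 1.1, and no build or option was named. Of 35556 clusters, the platform annotation gave 1 symbol to 21789, several to 1621 and none to 12146, and 21698 single-symbol clusters matched GRCm38.p6 RefSeq by gene identifier. One cluster per gene, that of highest mean, was used. The tests need a log2 scale, so the intensity was log2-transformed first. limma 3.58.1 in R 4.3.3 gave an additive fit of cell type and genotype (3 residual degrees of freedom) and a fit with 4 groups (2), and the pair of round spermatid arrays was only counted at 2-fold. Scripts were tested on simulated data. The number of arrays limits the precision. Members, lists and tests were chosen with earlier results of these data known. Named partners are the 3 largest called changes per direction in each list. Trp53, Cdkn1a and the markers Rhox5, Insl3, Lhcgr and Hbb-bs had no cluster used here. Alternatives were a pseudocount of 16, a second quantile normalization, median centring, other filters (none, log2 7), cluster means, a trended robust prior, each array left out, and a replicate block. The block sets the spermatid arrays, both numbered 2, against the pachytene arrays numbered 2. Deviations of same-numbered pachytene arrays correlated at -0.23 across genes, so pairing by number was not assumed.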

Additional observations from a re-analysis of the deposited data

How the results depend on the processing

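The 8 calls between cell types, 3 higher and 5 lower, were also 8 with a pseudocount, a second quantile normalization, median centring, both other filters (Chek2 was not tested at log2 7), cluster means and a trended robust prior; leaving out each array gave 5 to 8. With the mean over the fit with 4 groups 6 were called, Atrip and Rad17 being lost, and with the replicate block 7, Atrip being lost; the block changed no other member's call in that comparison. In WT leaving out each array gave 1 to 7, and in KO the count was 3 with no filter and 4 to 7 leaving out each array. Partner genes called numbered 16 to 37. Under every alternative run, 0 members were called for KO against WT. Signs of uncalled differences turned: Chek2 between cell types in WT was 0.0104 after quantile normalization, and Atr over both cell types was -0.00024 as the mean over the fit with 4 groups. Leaving out each array, KO minus WT in pachytene cells ran from -0.11 to 0.30 for Atm, -0.0608 to 0.21 for Topbp1, -0.49 to 0.35 for Chek1, -0.84 to 0.10 for Rad1, -0.50 to 0.24 for Hus1 and -0.33 to 0.15 for Rad17, and over both cell types from -0.0240 to 0.10 for Atr, -0.37 to 0.11 for Chek1, -0.53 to 0.00926 for Rad1 and -0.29 to 0.14 for Hus1. The cause was not tested. Chek2 and Atm lie near or below the arrays' medians, which limits what can be seen in them.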
